A study of Mus musculus with 8 samples.

Results

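The cytosolic ribosome of muscle stem cells (MuSCs) was examined through the genes of its proteins. Members were all protein-coding genes of the count table whose symbol begins with Rps or Rpl, leaving out the kinases named Rps6k and the binding protein Rps19bp1, which gave 91 of 55487 genes. Of these, 77 encode the core proteins of the ribosome, 46 in the large and 31 in the small subunit, and 14 are paralogs, that is copies of a core gene at another place in the genome.

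The MuSCs came from old male C57BL/6JRj mice, with no transgene or deletion given. They were sorted by FACS as cells negative for CD31, CD11b, CD45 and Sca1 and positive for CD34 and integrin α7, and were cultured for 72 hours in growth medium. Vehicle cultures received 1% DMSO, and NAM/PN cultures received the combination of nicotinamide and pyridoxine, which are forms of the vitamins B3 and B6, at 1 mM. The 8 mice were combined in 4 pools of 2 mice, and each pool gave 1 vehicle and 1 NAM/PN library, so that each condition had 4 libraries and the same mice in both. Libraries held between 6472484 and 10163101 counts. They were made from the 3′ end of transcripts, so that a count does not grow with the length of the transcript, and levels are given as CPM, which are counts scaled to the normalized library size.

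A ribosome holds 1 copy of nearly every core protein, and cells make these proteins in matched amounts. Their mRNAs belong to the TOP mRNAs, which begin with a C followed by pyrimidines and whose translation rises with mTOR activity. Ribosomal protein genes have left many processed pseudogenes, which are copies of the mRNA pasted back into the genome, and a few copies that are still protein-coding genes. Rpl3l replaces Rpl3 in mature striated muscle, Rps27l responds to p53, and Rpl10l and Rpl39l are known from the testis. Rpl22 and Rpl22l1 are a pair in which the Rpl22 protein is known to repress Rpl22l1.

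The last 120 coding bases of 3 core genes, picked for the highest and lowest levels, are shown first, from GENCODE transcripts on GRCm38. Near-identical copies can split the reads of a gene, and their part in the levels was not tested. Capitals mark bases that lie in a run of 50 bases also found in a transcript of another gene. Rpl4 had the highest level among the core genes, and Rpl24 and Rps6 had the lowest.

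Rpl4: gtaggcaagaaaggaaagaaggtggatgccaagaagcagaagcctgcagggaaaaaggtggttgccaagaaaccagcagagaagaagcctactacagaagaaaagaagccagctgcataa

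Rpl24: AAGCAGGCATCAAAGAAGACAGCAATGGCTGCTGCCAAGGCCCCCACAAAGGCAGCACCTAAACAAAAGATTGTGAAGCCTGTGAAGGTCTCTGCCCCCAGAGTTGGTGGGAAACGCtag

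Rps6: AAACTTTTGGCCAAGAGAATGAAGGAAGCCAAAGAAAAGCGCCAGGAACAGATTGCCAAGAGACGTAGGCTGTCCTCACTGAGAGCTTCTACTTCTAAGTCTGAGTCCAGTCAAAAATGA

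None of the bases shown for Rpl4 were in capitals, against 97.5% for Rpl24 and all for Rps6. Rpl4, whose protein reaches into the exit tunnel, was counted 196373 times in the 8 libraries together. Rps6, the small subunit protein that S6 kinases phosphorylate, was counted 30 times in all, and Rpl24, a large subunit protein at the interface of the subunits, 29 times.

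The same measure was taken over windows of 50 bases in the last 300 coding bases of each core gene. In 76 of 77 core genes at least 1 window was found in another gene, and in 36 genes every window was. The 10 genes with under 50% of windows shared had a median level of 1232 CPM, from 455 CPM for Rpl13a to 2988 CPM for Rpl4. The 31 genes between 50% and 100% had a median of 143 CPM, and the 36 genes with all windows shared a median of 19.3 CPM, from 0.453 CPM for Rps6 to 847 CPM for Rpl13. The 10 genes of the first class held 42.0% of all core counts, and the 36 of the last held 9.04%. Over the 77 genes, Spearman's rho between the share of windows and the mean level was -0.71, given as a description of genes that share the same 8 libraries.

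**Figure D1:**
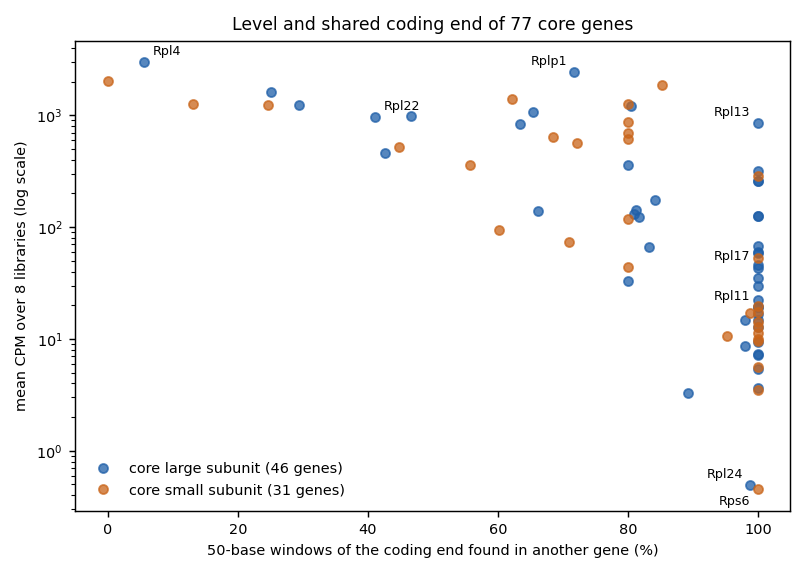
Mean CPM over the 8 libraries (log scale) against the percentage of 50-base windows of the coding end that are found in another gene, for the 77 core genes, with 1 point per gene. Rpl4 lies at the upper left, and Rps6 and Rpl24 lie at the lower right, below all other core genes.

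Reads were also counted on those copies. The 903 pseudogenes that share a window with a core gene held 794523 counts, against 2107248 counts on the core genes, and for 33 core genes their pseudogenes held more counts than the gene. Gm10288, a processed copy of Rpl11 at chr3:146838811-146839347, had 81150 counts against 1254 on Rpl11. Rps13-ps2 had 49462 counts against 1143 on Rps13, and Gm12254 had 7097 against 29 on Rpl24. Gm8292 and Gm5963 had 85890 and 62858 counts, against 42923 on Rps24 and 34188 on Rps21. These pseudogenes were named after their values were seen. The pseudogenes of Rps6 together held 438 counts, against 30 on the gene. Those of Rpl13, the highest of the genes with all windows shared, held 43 counts, against 56756 on the gene. How reads with several matching places were handled is not given in the sources used here, so the level of a core gene with a shared end cannot be told apart from that of its copies. Of the 903 pseudogenes, 104 were tested and 1 was called higher, where 0.282% of all tested genes were. Their median log2 fold change was 0.064, and -0.069 without vehicle replicate 3 and NAM/PN replicate 4. The pseudogene called was Gm9625, a copy of Rplp0 named after its value was seen, with 142 and 189 CPM in the NAM/PN libraries of pools 1 and 2 and between 0.124 and 5.31 CPM in the other 6 libraries. It was higher with NAM/PN in 2 of 4 pools, and its edgeR adjusted p was 0.0258, or 0.279 with the replicate block.

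Marker genes were read to check the labelled cell type. Markers of MuSCs and myoblasts, such as Pax7 and Myod1, summed to 2256 to 2488 CPM in vehicle cultures. In NAM/PN cultures they summed to 1834 to 2231 CPM, so that the sums did not overlap. For each of the 8 markers taken singly, the groups overlapped. Of the 7 that were tested, 6 lay below 0 and 1 above, and 0 were called (lowest edgeR adjusted p = 0.602). Myod1, the largest part of each sum, had a log2 fold change of -0.19 (edgeR adjusted p = 0.824). Of 6 endothelial markers 3 were at 0 in all libraries (Emcn, Cldn5 and Flt1), of 6 immune markers all but Cd68, and of 6 fibro-adipogenic markers Pdgfra, Lum and Dpt. Summed fibro-adipogenic markers, mostly Col1a1, were nevertheless 486 and 1038 CPM in the NAM/PN libraries of pools 1 and 2, against 1.74 to 41.3 CPM in the other 6 libraries. Their part in the results was not tested. Summed mural markers were 40.5 to 88.8 CPM in vehicle cultures and 33.4 to 50.9 CPM in NAM/PN cultures, and Schwann markers at most 12.6 CPM.

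Vehicle replicate 3 and NAM/PN replicate 4 stood apart in the core genes. Vehicle replicate 3 had the lowest value of the 8 libraries for 37.3% of the 75 tested core genes, against 19.2% of the other tested genes, and NAM/PN replicate 4 had the highest value for 36.0%, against 18.2%. The deviations of these 2 libraries from the means of their conditions went together across core genes (Pearson's r = 0.65 over 75 genes that share these libraries), while over the other tested genes r was 0.01. For other pairs of libraries from different conditions, r over the core genes ran from -0.59 to 0.43. Rpl27, Rpl35, Rpl10a, Rps4x and Rps16 were low in both, and Rpl39 was high in both. Rpl27, Rpl35 and Rpl10a had 0 counts in vehicle replicate 3, so that their deviations there depend on the prior count added before taking logs. Rps4x and Rps16 had at most 25 counts in either library. Over the core genes, Spearman's rho between mean level and deviation was 0.43 in vehicle replicate 3 and 0.35 in NAM/PN replicate 4. Over the other tested genes it was -0.0042 and 0.027. Both libraries were below the mean of their condition for 30.7% of the core genes, above it for 33.3% and split for 36.0%, against 24.5%, 25.1% and 50.4% of the other tested genes. In vehicle replicate 3 the ribosomal RNA gene CT010467.1 held 18.7% of counts, against 9.09% to 9.59% in the other vehicle libraries, and in NAM/PN replicate 4 it held 5.22%, against 10.2% to 11.6% in the other NAM/PN libraries. The part of ribosomal RNA in the deviations was not tested.

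**Figure D2:**
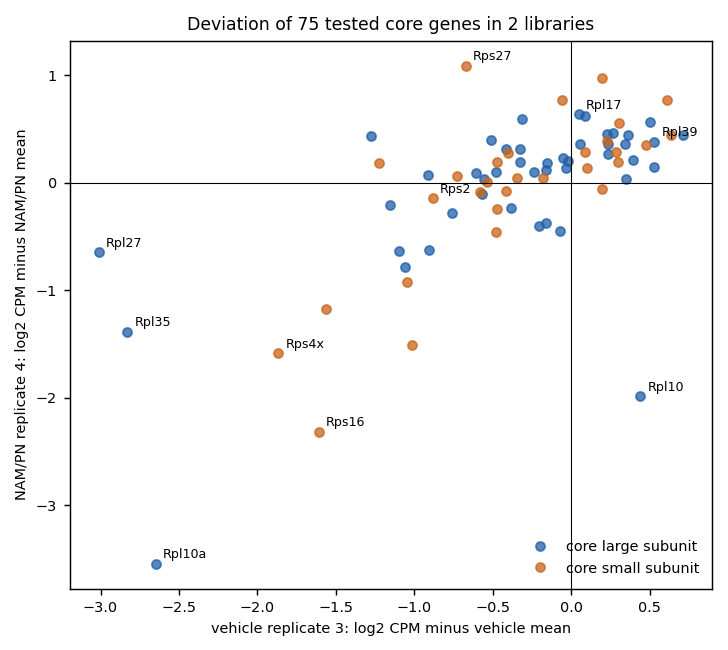
Deviation of log2 CPM from the mean of its condition in vehicle replicate 3 (horizontal) and NAM/PN replicate 4 (vertical) for the 75 tested core genes, with 1 point per gene. Points run from the lower left, with Rpl10a low in both libraries, to the upper right, with Rpl39 high in both.

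As counted, the core genes together took a few percent of each library. The pseudogenes that share a window with them held a further 0.893% to 1.42% of counts, which the shares below leave out. The share of counts on core genes with vehicle was 2.94%, 3.11%, 2.81% and 2.89% in pools 1 to 4, and with NAM/PN it was 3.07%, 3.12%, 3.10% and 4.10%. The NAM/PN library of pool 4 lay above all others, and the remaining 3 NAM/PN libraries lay within or just above the range of the vehicle libraries. The mean was 2.94% ± 0.127 (SD, n = 4) with vehicle and 3.35% ± 0.503 (SD, n = 4) with NAM/PN. When counts on the ribosomal RNA gene and on mitochondrial genes were left out of the total, the share was 3.51%, 3.62%, 3.63% and 3.48% with vehicle and 3.64%, 3.67%, 3.64% and 4.45% with NAM/PN, so that all NAM/PN libraries lay above all vehicle libraries, 3 of them narrowly. With all counts and without NAM/PN replicate 4, the NAM/PN mean exceeded the vehicle mean by 0.16 percentage points, against 0.412 with it. The 14 paralogs together took between 0.062% and 0.105% of the counts.

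The comparison between NAM/PN and vehicle asks whether the treatment changed ribosomal protein mRNAs in aged MuSCs. In bulk samples, fewer cells of a type and less RNA per cell cannot be told apart. Of the 91 members, 83 passed the filter on low counts and were tested, 75 core genes and 8 paralogs. When edgeR's quasi-likelihood test was adjusted over all 12060 tested genes by Benjamini-Hochberg, 0 of the 83 were called higher and 0 lower at an adjusted p under 0.05, where 0.282% of all tested genes were called higher and 0.995% lower. At an unadjusted p under 0.05, 3 members were higher and 0 lower, against 3.96% of all tested genes higher and 5.32% lower. The unadjusted count was 4 with the pool as a replicate block, 6 with DESeq2 and 8 with total count scaling, all of them higher, against 3.69%, 4.05% and 5.15% of all tested genes higher. With voom it was 7 (4 higher and 3 lower), against 5.17% and 7.75% of all tested genes. Without vehicle replicate 3 it rose to 12 (7 higher and 5 lower), against 4.22% and 5.29% of all genes then tested, and without both libraries of pool 3 to 16 (10 higher and 6 lower), against 4.33% and 5.57%. None of these alternatives called a member after adjustment.

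The fold changes of the core genes lay mostly above 0. The median log2 fold change was 0.14, with 53 of 75 core genes above 0, while the median of all tested genes was -0.0022 and 49.8% lay above 0. With voom the median was 0.06, with 48 of 75 above 0. With total count scaling it was 0.19, with 58 of 75 above 0, and the median of all genes was 0.05. Scaling on the core genes themselves centres them by construction, and there the median was 0.02 with 40 of 75 above 0, while the median of all genes moved to -0.12. Without vehicle replicate 3 and NAM/PN replicate 4 together, the median was 0.05 and 41 of 75 lay above 0. The proteins of the mitochondrial ribosome, whose symbols begin with Mrps or Mrpl, had a median of 0.09, with 52 of 76 above 0, and without these 2 libraries -0.04, with 33 above 0.

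**Figure D3:**
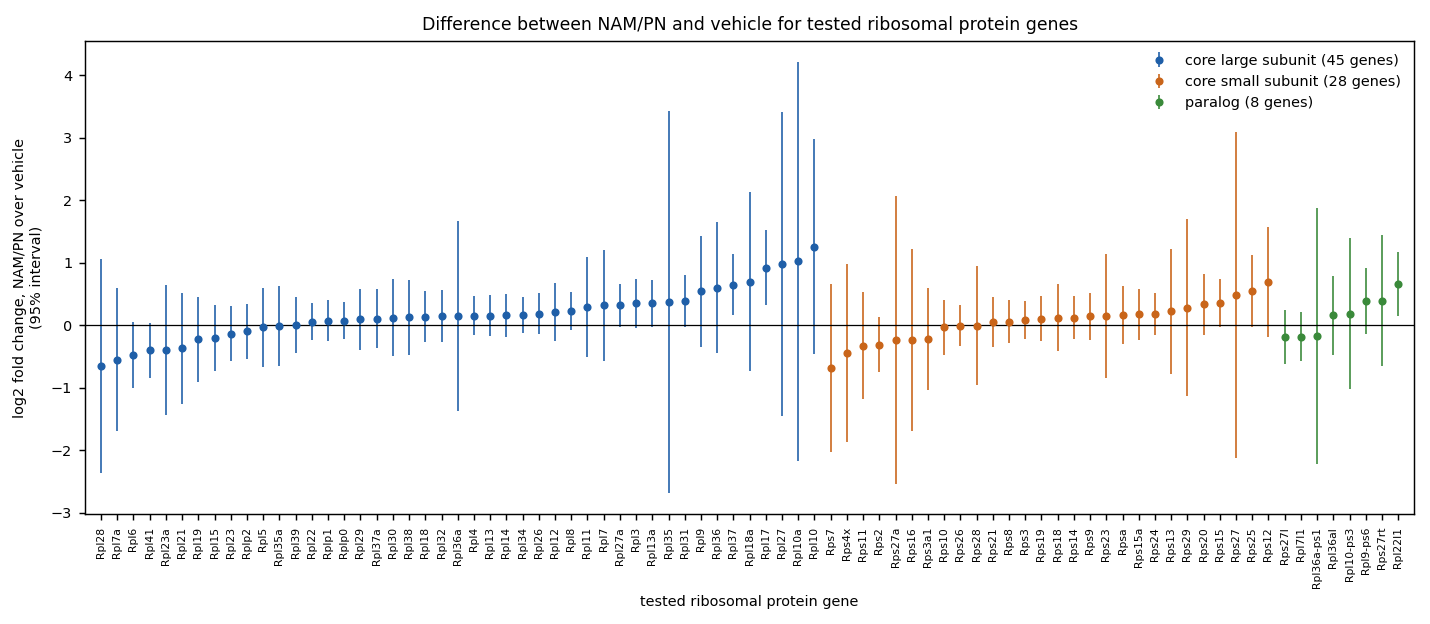
Log2 fold change of NAM/PN over vehicle (points) with its 95% interval (lines) for 81 of the 83 tested members, ordered within the large subunit, the small subunit and the paralogs. The intervals of Rpl17, Rpl37 and Rpl22l1 lie above 0, and no interval lies below 0.

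Precision differed widely between members. The 95% interval of the log2 fold change stayed within a change of 2-fold either way for 45 of 75 core genes, and within 1.5-fold for 26. Among the 41 core genes whose average log2 CPM was 6 or more, 39 stayed within 2-fold. The standard error had a median of 0.16 in the 10 core genes with under 50% of windows shared and 0.42 in the 35 tested genes with all windows shared, and ran up to 1.52. For the 45 genes a change beyond 2-fold lay outside the interval, and for the other 30 the interval reached beyond 2-fold in at least 1 direction.

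By role, no group of core proteins had a called member. The 9 core proteins that surround the exit of the nascent peptide, among them Rpl4, Rpl17, Rpl22, Rpl31, Rpl35 and Rpl39, had 7 fold changes above 0 and a median of 0.16. The 4 stalk proteins, which recruit elongation factors, had 3 above 0 and a median of 0.08, which turned to -0.02 with 1 above 0 without vehicle replicate 3 and NAM/PN replicate 4. The 7 small subunit proteins along the mRNA channel had 4 above 0 and a median of 0.04, which turned to -0.04 with 0 above 0 without these 2 libraries. The other large subunit proteins had 22 of 30 above 0 with a median of 0.15, and the other small subunit proteins 16 of 23 with a median of 0.15. Without the same 2 libraries these medians were 0.09 (19 of 30 above 0) and 0.05 (14 of 23), and that of the exit proteins was 0.11 (6 of 9). Rpl5 and Rpl11, which carry the 5S rRNA and bind Mdm2 when they are in excess, had log2 fold changes of -0.03 and 0.29.

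Rpl17, a protein at the exit tunnel, had the smallest p of all members. Its level with vehicle was 26.5, 24.3, 30.5 and 38.6 CPM in pools 1 to 4, and with NAM/PN 41.5, 58.1, 43.2 and 85.1 CPM. All NAM/PN libraries lay above all vehicle libraries. The log2 fold change was 0.93 (standard error 0.29, 95% interval 0.32 to 1.53), with an unadjusted edgeR p of 0.00467 and an edgeR adjusted p of 0.166, or 0.183 with the replicate block, so that it did not pass the test. All windows of its coding end are shared with other genes. Its groups and those of Rpl27a were the only ones among the 75 tested core genes that did not overlap, with both higher with NAM/PN, where 2.79% of all tested genes were separated upward and 4.42% downward. Rpl27a, named after its values were seen, had 226, 256, 223 and 221 CPM in vehicle cultures and 261, 303, 257 and 338 CPM in NAM/PN cultures, with a log2 fold change of 0.32 and an edgeR adjusted p of 0.585.

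Rpl37, a small zinc-binding protein of the large subunit, followed. It had 99.2, 123, 88.1 and 134 CPM in vehicle cultures and 194, 139.6, 113 and 252 CPM in NAM/PN cultures. NAM/PN was higher in each of the 4 pools, but the NAM/PN library of pool 3 lay below 2 vehicle libraries. The log2 fold change was 0.65 (standard error 0.23, edgeR adjusted p = 0.277, and 0.248 with the block). Its copy Rpl37rt, which the annotation lists as a pseudogene and which holds more counts, had a log2 fold change of 0.09. 9 members were higher with NAM/PN in all 4 pools and 0 were lower in all, against 8.49% and 10.6% of all tested genes.

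Among the falls, none reached an unadjusted p under 0.05 in edgeR's test as described, while 3 did with voom and 5 without vehicle replicate 3. Rpl6, a large subunit protein, had 63.6, 92.6, 43.2 and 73.9 CPM in vehicle cultures and 41.1, 57.8, 45.8 and 51.9 CPM in NAM/PN cultures. The groups overlapped through vehicle replicate 3, the only vehicle library within the NAM/PN range. Its log2 fold change was -0.47 (standard error 0.25, edgeR adjusted p = 0.625). Rpl41, the shortest ribosomal protein, had a log2 fold change of -0.40 (standard error 0.21, edgeR adjusted p = 0.627), and -0.11 without pool 1.

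Rps2, which lies at the mRNA entry of the small subunit, was the only member called under any alternative. It had 893, 737, 348 and 745 CPM in vehicle cultures and 568, 605, 534 and 497 CPM in NAM/PN cultures. The vehicle library of pool 3 lay below all others, and the remaining vehicle libraries lay above all NAM/PN libraries. Over all libraries the log2 fold change was -0.31 (standard error 0.21, edgeR adjusted p = 0.782). It was -0.15 without vehicle replicate 1 (edgeR adjusted p = 0.966) and -0.53 without vehicle replicate 3 (edgeR adjusted p = 0.0805). Without both vehicle replicate 3 and NAM/PN replicate 4, a choice made after the values were seen, it was -0.48 (edgeR adjusted p = 0.0311). With that choice, 236 of the 12281 genes then tested were called, 65 of them higher.

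**Figure D4:**
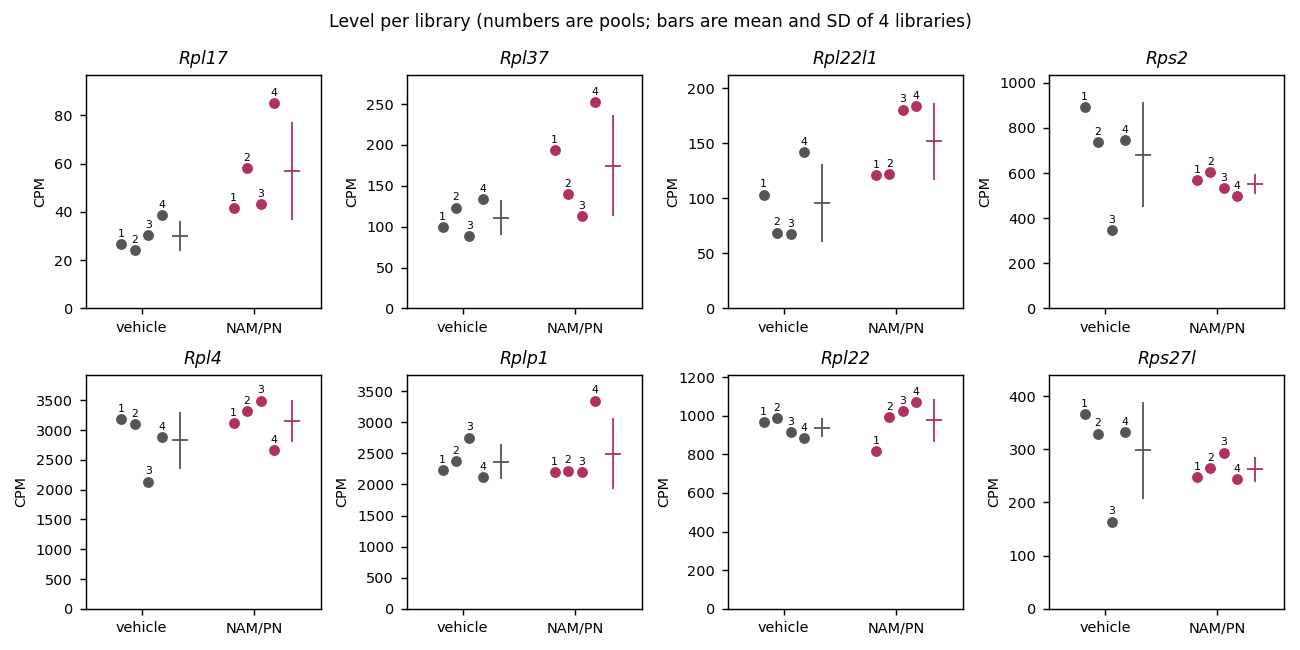
CPM in each library of 8 members, with vehicle in grey and NAM/PN in red, the pool number above each point, and the mean and SD of 4 libraries beside them. The groups of Rpl17 do not overlap, and for Rps2, Rpl4 and Rps27l the vehicle library of pool 3 is the lowest of the 8.

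The largest fold changes belonged to core genes with few counts. Rpl10, which completes the large subunit, had 4.26, 3.35, 5.8 and 3.81 CPM in vehicle cultures and 19.9, 13.8, 5.94 and 1.68 CPM in NAM/PN cultures. The NAM/PN libraries of pools 1 and 2 lay above the rest and that of pool 4 lay lowest, and the log2 fold change was 1.26 with a 95% interval from -0.45 to 2.97. In the same 2 NAM/PN libraries Col1a1, of the fibro-adipogenic markers, stood at 486 and 1032 CPM, against 1.74 to 41.3 CPM in the other 6. Pdgfra, Dcn, Lum and Dpt of the same list were at 0 in these 2 libraries, and Ly6a was at 0 and 5.85 CPM. The part of Col1a1 in the value of Rpl10 was not tested. Rpl10a and Rpl27 had log2 fold changes of 1.02 and 0.99. Each had a vehicle library at 0, and Rpl10a was also at 0 in NAM/PN replicate 4. With its named pseudogenes added, a choice made after the values were seen, Rpl10a was at -0.084. When 1 library or pool was left out, Rpl10a ran from 0.34 without pool 1 to 2.62 without pool 4, and Rpl27 from 0.10 without pool 3 to 2.10 without pool 4. Rps7, Rpl28, Rpl7a and Rps4x had the largest falls beside Rpl6, between -0.68 and -0.44. All of these genes but Rpl6 had an edgeR adjusted p above 0.75. Rps25, of the small subunit, had 42.8 ± 13.3 CPM in vehicle cultures and 62.8 ± 17.6 CPM in NAM/PN cultures (SD, n = 4 each) and an edgeR adjusted p of 0.583.

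The highest level among the core genes was that of Rpl4. It had 3185, 3101, 2138 and 2884 CPM in vehicle cultures and 3118, 3315, 3495 and 2670.1 CPM in NAM/PN cultures. Only the vehicle library of pool 3 stood clearly lower, and the log2 fold change was 0.16 with a 95% interval from -0.15 to 0.46. For Rplp1, an acidic stalk protein, the vehicle libraries had between 2115 and 2755 CPM and 3 NAM/PN libraries between 2197 and 2222 CPM, while the NAM/PN library of pool 4 had 3350.2 CPM. Rplp0, the base of the stalk, had a log2 fold change of 0.08 with an interval from -0.22 to 0.37. Rpl39, in the exit tunnel, had 175 ± 52.5 CPM in vehicle cultures and 175 ± 34.9 CPM in NAM/PN cultures (SD, n = 4 each).

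Other core genes were too sparse to compare. Rpl35 at the exit tunnel, Rps27 and Rpl10a had the lowest levels among the tested core genes, and Rpl35 ran from 0 to 8.07 CPM without separation of the groups. Rps27a, which is made as a fusion with ubiquitin, ran from 0 to 10.5 CPM. Rps6 was at 0 in 5 libraries and reached 2.34 CPM in the NAM/PN library of pool 1, and Rpl24 was at 0 in 6 libraries. Both failed the filter on low counts, and they are not among the tested genes.

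Core proteins outside the naming rule were read in the same way. Rack1, a scaffold on the small subunit, had 1633 ± 31.2 CPM in vehicle cultures and 1708 ± 268 CPM in NAM/PN cultures (SD, n = 4 each), with a log2 fold change of 0.07. Fau, whose product is a fusion of a ribosomal protein, had a log2 fold change of 0.07. Of 18 other TOP mRNAs, such as translation factors, 0 were called and 11 lay above 0, with a median of 0.11. A further list of 12 genes held chaperones and escorts of ribosomal proteins and maturation factors of the subunits, such as Nmd3 and Sbds. Of these, 0 were called and 7 lay above 0, with a median of 0.07.

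Among the paralogs, Rpl3l had 0 counts in all 8 libraries, which allows up to 0.455 CPM in the shallowest library and 0.280 CPM in the deepest (3 counts per library, covering counting error only). Its partner Rpl3 had 169.7, 253, 288 and 188 CPM in vehicle cultures and 254, 278, 284 and 331 CPM in NAM/PN cultures, a log2 fold change of 0.35 (edgeR adjusted p = 0.631). Rpl3 was counted in every library. Genes of muscle differentiation were read beside it. Myog, the regulator of myocyte differentiation, fell from 929 ± 389.8 CPM to 199 ± 74.3 CPM (SD, n = 4 each, log2 fold change -2.22, edgeR adjusted p = 0.000232). Ckm, the creatine kinase of mature muscle, had at most 12.3 CPM in any library and was at 0 in 3. Of 15 markers of differentiating muscle, 11 were called lower with NAM/PN, where 0.995% of all tested genes were. The 15 markers summed to 2056 to 4091 CPM in vehicle cultures and to 466 to 1077 CPM in NAM/PN cultures. The part of this change in the ribosomal protein values was not tested.

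Rpl10l, Rpl39l and 3 copies named as pseudogenes but annotated as protein-coding were also too low to test. Rpl10l had 22 and 10 counts in the NAM/PN libraries of pools 1 and 2, the libraries with high Col1a1, and 0 in the other 6. Rpl39l had 1 count in all, in NAM/PN replicate 1, and Rpl9-ps1 had 1 count in vehicle replicate 4. Rpl36-ps4 and Rps12-ps3 had 0 counts. Of the other copies of this kind, Rpl9-ps6 was at 133 ± 23.7 CPM in vehicle cultures and 173 ± 77.7 CPM in NAM/PN cultures, and Rpl10-ps3 and Rpl36a-ps1 were under 16 CPM in every library.

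Rpl22l1 had the largest difference among the tested paralogs. Its level was 103, 68.9, 67.3 and 142 CPM in vehicle cultures and 121, 122, 181 and 184 CPM in NAM/PN cultures. It was higher with NAM/PN in each of the 4 pools, while the vehicle library of pool 4 lay above the NAM/PN libraries of pools 1 and 2. The log2 fold change was 0.67 (standard error 0.24, 95% interval 0.16 to 1.18), with an unadjusted edgeR p of 0.0133 and an edgeR adjusted p of 0.302, or 0.194 with the block. Rpl22 had 966, 989, 917 and 884 CPM in vehicle cultures and 819, 993, 1026 and 1073 CPM in NAM/PN cultures, without separation, and its log2 fold change was 0.06 (standard error 0.14).

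The balance of a paralog with its core partner was compared within each library, as the difference of their log2 CPM values, for the 6 pairs with at least 3 counts of each in some library. The test was a two-sided exact permutation test of 4 against 4 libraries, in which p cannot fall below 0.0286. With Benjamini-Hochberg adjustment over the 6 pairs, a single pair cannot fall below 0.171, and 4 pairs at the smallest p would be needed to pass. For Rpl22l1 and Rpl22 the log2 ratio was -3.22, -3.84, -3.76 and -2.63 with vehicle and -2.76, -3.02, -2.5 and -2.54 with NAM/PN. It was higher with NAM/PN in all 4 pools, by 0.66 on average, with an exact p of 0.0857 and an adjusted exact p of 0.429. The exact p of the other 5 ran upward from 0.143. The smallest of these, for Rpl10l and Rpl10, rests in part on the prior count, since Rpl10l was at 0 in 6 libraries.

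As counted, Rps27l stood far above Rps27. Rps27l had 366, 329.7, 164 and 333 CPM in vehicle cultures and 247, 264, 294 and 244 CPM in NAM/PN cultures, and the vehicle library of pool 3 was the lowest of all 8. Rps27 had at most 7.85 CPM in any library. The log2 ratio was 6.92 ± 1.26 with vehicle and 6.11 ± 0.877 with NAM/PN (SD, n = 4 each, exact permutation p = 0.4). The coding sequences of the family, each 255 bases long, are shown to set this beside the share of common sequence, and capitals in Rps27l mark bases that differ from Rps27.

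Rps27: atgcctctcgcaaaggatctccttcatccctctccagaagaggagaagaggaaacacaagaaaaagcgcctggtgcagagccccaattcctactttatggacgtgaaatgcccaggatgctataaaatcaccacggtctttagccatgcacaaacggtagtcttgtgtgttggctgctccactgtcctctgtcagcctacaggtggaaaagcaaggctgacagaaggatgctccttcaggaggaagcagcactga

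Rps27l: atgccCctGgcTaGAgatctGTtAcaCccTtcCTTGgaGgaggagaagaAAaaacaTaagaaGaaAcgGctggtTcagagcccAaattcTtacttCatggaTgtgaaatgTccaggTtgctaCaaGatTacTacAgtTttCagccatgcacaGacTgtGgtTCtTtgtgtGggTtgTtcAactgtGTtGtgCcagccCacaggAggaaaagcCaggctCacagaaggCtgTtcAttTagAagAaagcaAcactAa

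Rps27l differed from Rps27 at 61 bases and was identical at 76.1%. Rps27rt, at chr9:114982366-114982739, had the same base as Rps27 at every position. Its level was 12.1 ± 3.62 CPM in vehicle cultures and 15.9 ± 8.72 CPM in NAM/PN cultures (SD, n = 4 each), and its level and that of Rps27 cannot be told apart from coding reads. Rps27rt and Rps27 also shared the start of the transcript. In windows of 30 bases on either side of the RefSeq start (GRCm38.p6), the longest common run was 29 bases, and the motif CTTTCC, in capitals, lay at the start of both.

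Rps27: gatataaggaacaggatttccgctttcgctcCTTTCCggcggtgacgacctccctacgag

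Rps27rt: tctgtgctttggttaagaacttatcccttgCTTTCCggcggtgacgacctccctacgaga

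The windows are chr3:90213619-90213678 and chr9:114982710-114982769, both read on the minus strand. Promoter sequences were found for 57 of the 77 core genes. CTTTCC lay in this window, on the strand of the gene, in 11 of the 57 (19.3%), against 3.40% of 27025 genes and 4.35% of 69 genes of the mitochondrial ribosome. On either strand of the whole 300 bases given for a gene it lay in 50.9% of the 57 core genes and in 29.3% of all genes. Rps27l, Rpl22, Rpl22l1 and Rps6 did not have these letters in the window around the start. The exact letters are not a test for a TOP start, since other runs of a C and pyrimidines were not counted.

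Other p53 targets were read beside Rps27l. Cdkn1a, the cell cycle inhibitor p21, fell from 1302 ± 154 CPM to 504 ± 76.7 CPM (SD, n = 4 each, log2 fold change -1.37, edgeR adjusted p = 9.38e-05). Mdm2, which Rpl5 and Rpl11 bind, had 474 ± 40.4 CPM in vehicle cultures and 331 ± 45 CPM in NAM/PN cultures (SD, n = 4 each), with groups that did not overlap, a log2 fold change of -0.52 and an edgeR adjusted p of 0.156. Of the 12 p53 targets listed, 11 lay below 0, while 49.8% of all tested genes lay above 0. Of the 12, 2 were called lower, Cdkn1a and Trp53inp1, where 0.995% of all tested genes were. Rps27l had a log2 fold change of -0.18 (standard error 0.21, edgeR adjusted p = 0.912), which ran from -0.45 without pool 3 to -0.05 without pool 1. Whether this differed from the change of Cdkn1a was not tested.

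Rpl7l1 and Rpl36al exceeded their core partners as counted. Rpl7l1 had 184 ± 14.5 CPM in vehicle cultures and 162 ± 36.5 CPM in NAM/PN cultures, and Rpl7 had 20 ± 11.7 and 24.9 ± 4.36 CPM (SD, n = 4 each). Rpl36al had 37.7 ± 9.34 and 42.1 ± 13.5 CPM, and Rpl36a, at 87.9% identity of the coding bases, 8.82 ± 7.39 and 9.82 ± 6.19 CPM. Rpl7 and Rpl36a are among the core genes with all windows shared. The log2 ratio of Rpl7l1 to Rpl7 differed by -0.72 (exact permutation p = 0.314), and that of Rpl36al to Rpl36a by -0.20 (exact permutation p above 0.8). The first ran from -1.01 without vehicle replicate 1 to -0.36 without vehicle replicate 3.

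**Figure D5:**
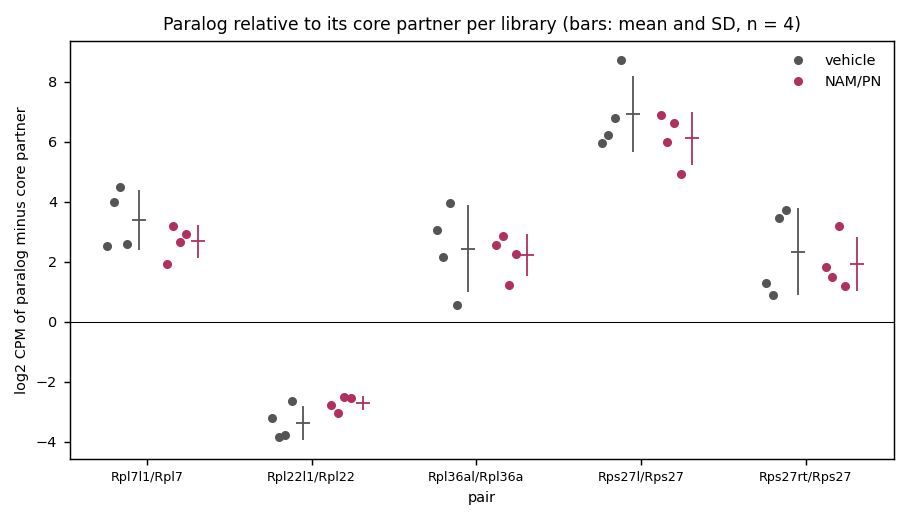
Log2 CPM of the paralog minus that of its core partner in each library, for 5 pairs, with vehicle in grey and NAM/PN in red and the mean and SD of 4 libraries beside the points. Rpl22l1 lies below its partner in every library and the other 4 paralogs lie above theirs, and the groups overlap in each pair.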

How the data were processed

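RNA from 8 cultures of aged mouse MuSCs was sequenced with a QuantSeq 3′ kit. Per the supplement, the authors demultiplexed with Bcl2FastQ, aligned to GRCm38 with RNASTAR and deposited raw counts per gene from htseq-count (HTSeq 2.16.2 in the submitters' processing notes). The annotation release, the strand setting and the handling of reads with several matches are not given in the sources used here. Counts on genes were 6472484 to 10163101 per library, and intervals and floors cover counting error only. Symbols and positions came from GENCODE M21 on GRCm38, which held 55141 of 55487 identifiers.

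Genes were filtered with filterByExpr (minimum count 10, minimum total 15), normalized by TMM and compared with edgeR 4.0.16 (glmQLFTest, R 4.3.3) without a block, with Benjamini-Hochberg adjustment over 12060 genes and a threshold of 0.05. Log2 CPM used a prior count of 2. The pool number marks the same mice in both conditions, and deviations of same-numbered libraries correlated between -0.0332 and 0.0313 over all tested genes, and over the core genes at 0.10, -0.10, -0.51 and -0.59 in pools 1 to 4. Alternatives were a replicate block, DESeq2 1.42.0, voom (limma 3.58.1), no filter, a robust fit, thinned counts, other scalings, and leaving out libraries or pools. Shared windows of 50 bases were searched in all GENCODE transcripts for the last 300 coding bases of the principal transcript.

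Named were every paralog and its core partner, the 5 largest rises and falls, the 3 smallest p in each direction, the 3 highest and lowest levels, untested core genes, and Rpl5, Rpl11, Rps6, Rpl22, Rpl39, Rplp0 and Rps27a. Outside the members the rule named Fau, Rack1, Myog, Ckm, Cdkn1a and Mdm2. Members and lists were chosen with earlier results of these data known. Rps4l was not analysed here, and some genes that the rule names are not reported here.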

Additional observations from a re-analysis of the deposited data

Results flagged for a closer look

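In 4 of 86 groups of 4 libraries examined, 1 library lay far from the other 3 for its group's range, where chance gives about 1 in 20 groups. All 4 concerned vehicle replicate 3 or NAM/PN replicate 4. The level of Rpl7l1 was 206 CPM in vehicle replicate 3, against 175 to 179 CPM in the other vehicle libraries. The level of Rplp1 reached 3350.2 CPM in NAM/PN replicate 4, where the other NAM/PN libraries had 2197 to 2222 CPM. The core share of counts was 4.10% in NAM/PN replicate 4, against 3.07% to 3.12% in the others. The ribosomal RNA gene CT010467.1 held 18.7% of counts in vehicle replicate 3, against 9.09% to 9.59% in the others.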

How the results depend on the processing

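Shared coding ends, low counts and 4 libraries per condition limit these values. Sign changes occurred in sparse members such as Rpl35 and in abundant ones such as Rplp1. Among all tested genes, 154 were called (34 higher, 120 lower), against 289 (75 and 214) with DESeq2, 366 (135 and 231) with no filter, 232 (66 higher) with voom, 20 higher when libraries were scaled on the core genes (core scaling), and 236 (65 and 171) without both vehicle replicate 3 and NAM/PN replicate 4. When 1 library or pool was left out, these counts ran from 42 to 177, with 5 to 43 higher and 37 to 134 lower. They fell to 92 without NAM/PN replicate 1, 80 without vehicle replicate 2, 87 without vehicle replicate 4, and to 65, 42 and 94 without pools 1, 2 and 4. The count of members called stayed at 0 in all alternatives except without both vehicle replicate 3 and NAM/PN replicate 4, where Rps2 was called lower (1 member). The median of the core genes ran from 0.06 to 0.16, and 43 to 59 core genes lay above 0, when a library or pool was left out. The pool as a replicate block changed no call of a member, and the median of the core genes was then 0.15. The omission of both libraries, and for fold changes the addition of pseudogenes to their parents, were chosen after seeing the data. The cause of the changes was not tested.

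Of 782 log2 fold changes of 34 named genes under 23 alternatives, 51 had the opposite sign, 36 of them when a library or pool was left out. With core scaling Rplp1 was at -0.065, Rpl22 at -0.065, Rpl39 at -0.13 and Rplp0 at -0.050. With voom Rpl36a was at -0.24. Total count scaling gave 0.020 for Rpl5, DESeq2 gave -0.00040 and no filter -0.00778 for Rpl39. With pseudogenes added to their parents, Rpl10a was at -0.084, Rpl36a at -0.019, and the log2 ratio of Rpl36al to Rpl36a differed by 0.16. When 1 library or pool was left out, log2 fold changes ran from -0.038 to 0.42 for Rpl10-ps3, -0.61 to 0.10 for Rpl36a-ps1, -0.13 to 0.36 for Rpl36al, -1.15 to 0.20 for Rps4x, -0.15 to 0.21 for Rplp1, -0.013 to 0.24 for Rpl4, -0.75 to 1.77 for Rpl35, -0.39 to 1.27 for Rps27, -0.21 to 0.13 for Rpl5, -0.018 to 0.15 for Rpl22, -0.29 to 0.22 for Rpl39, -0.00996 to 0.14 for Rplp0, -0.83 to 0.54 for Rps27a and -0.61 to 0.81 for Rpl36a. Without both vehicle replicate 3 and NAM/PN replicate 4, Rplp1 was at -0.028, Rps27 at -0.31, Rpl22 at -0.00880, Rplp0 at -0.011 and Rpl36a at -0.24. When 1 library was left out, the difference in log2 ratio ran from -0.83 to 0.30 for Rpl36al to Rpl36a, from -0.90 to 0.038 for Rps27rt to Rps27 and from -1.14 to -0.21 for Rps27l to Rps27.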
